A study of Mus musculus with 7 samples.

Results

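The genes described here are the matrix metalloproteinases (*Mmp*), the ADAMTS proteases and their protease-free ADAMTS-like relatives (*Adamts*, *Adamtsl*), the tissue inhibitors of metalloproteinases (*Timp*) and the lysyl oxidases (*Lox*, *Loxl*) of 2 mouse models of glioblastoma (GBM). They were taken by symbol from the table of raw counts, which gave 56 of 49492 genes: 23 *Mmp*, 19 *Adamts*, 5 *Adamtsl*, 4 *Timp* and 5 lysyl oxidase genes. NPCTKO (n = 4) tumours arose after tumour suppressor genes, *Trp53* and *Nf1* among them, were inactivated by Cas9 and guide RNAs, delivered as piggyBac plasmids to neocortical precursors by electroporation of embryos, and the RNA came from EGFP+ or DsRed+ cells sorted from dissociated tumours. NSCHRas-shp53 (n = 3) tumours arose after a lentivirus carrying an shRNA against *Trp53* and constitutively active human HRAS was put into the ventricular-subventricular zone of grown mice, and the RNA came from whole tumour tissue that was not sorted. All samples carry the labels C57BL/6, GBM and an age of 3 months, and the study's methods add that the lentivirus was given to Cre reporter mice and that some lines had a mixed background. The model and the preparation changed together, so tumour type and sorting cannot be told apart in any difference given here. Nothing states whether each sample is a mouse of its own, so the p-values measure the spread between these samples.

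Metalloproteinases are secreted or membrane-bound zinc enzymes that cut collagens, proteoglycans and other matrix proteins, and most are made as inactive precursors. The Timp proteins bind to their active sites and block them, and lysyl oxidases act in the opposite direction by crosslinking collagen and elastin. The brain matrix is rich in hyaluronan and in proteoglycans of the aggrecan family, which several ADAMTS proteases cleave, while fibrillar collagen is found mainly around vessels and in the meninges. The level of any of these genes in bulk RNA follows from both the number of cells that make it and the RNA made per cell, and fewer cells of a type and less RNA per cell cannot be told apart.

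The whole series was sequenced to total counts of 15002873 to 19247326 in NPCTKO and of 17529054 to 19840860 in NSCHRas-shp53. Counts are given as CPM, in which each library is scaled to the same size with TMM factors, and 3 counts, taken as the floor, correspond to 0.130 to 0.234 CPM. The sorted and whole samples differed in markers of other cells. Markers of mural cells, which wrap small vessels, summed to 28.1 to 43.1 CPM in NPCTKO and 324 to 546 CPM in NSCHRas-shp53, with 7 of 11 higher and none lower by the test used below. By that test, 7.77% of all genes tested were higher and 5.28% lower. The sum of 10 endothelial markers was 28.9 to 279 CPM in NPCTKO and 531 to 1001 CPM in NSCHRas-shp53 (3 of 10 higher), and that of 12 markers of tumour-associated macrophages was 458 to 22694 CPM and 2343 to 6804 CPM (none of 11 tested called in either direction). The macrophage marker *P2ry12* had 0 counts in every library, though not 0 FPKM, and added nothing to that sum. NPCTKO 1 and 2 held the most macrophage RNA, at 18369 and 22694 CPM, and NPCTKO 3 the least. The part that these cells have in the results was not tested.

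In NSCHRas-shp53 relative to NPCTKO, 7 members were higher and 3 were lower by edgeR's quasi-likelihood test with Benjamini-Hochberg adjustment over all 16091 genes tested (adjusted p under 0.05). Those higher were the stromelysins *Mmp3* and *Mmp10*, the collagenase *Mmp1a*, *Mmp23*, the lysyl oxidases *Loxl1* and *Loxl2*, and *Adamtsl5*. Those lower were the membrane-bound *Mmp15* and *Mmp16* and the protease *Adamts17*. The 10 calls were 21.7% of the 46 members tested, where 13.1% of all genes tested were called (7.77% higher and 5.28% lower). The median log2 fold change, always NSCHRas-shp53 minus NPCTKO, was 0.76 over the members tested and -0.10 over all genes tested. Without NSCHRas-shp53 2 or 3 the calls were 3 higher and 0 lower, without NSCHRas-shp53 1 only 1 was lower, and without NPCTKO 3 the number higher was 11. Of the 10 members not tested, 5 had too few counts and 5 had 0 counts in every library, and 3 of the latter, *Timp1*, *Timp3* and *Timp4*, lie inside other genes and were read as FPKM.

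**Figure D1:**
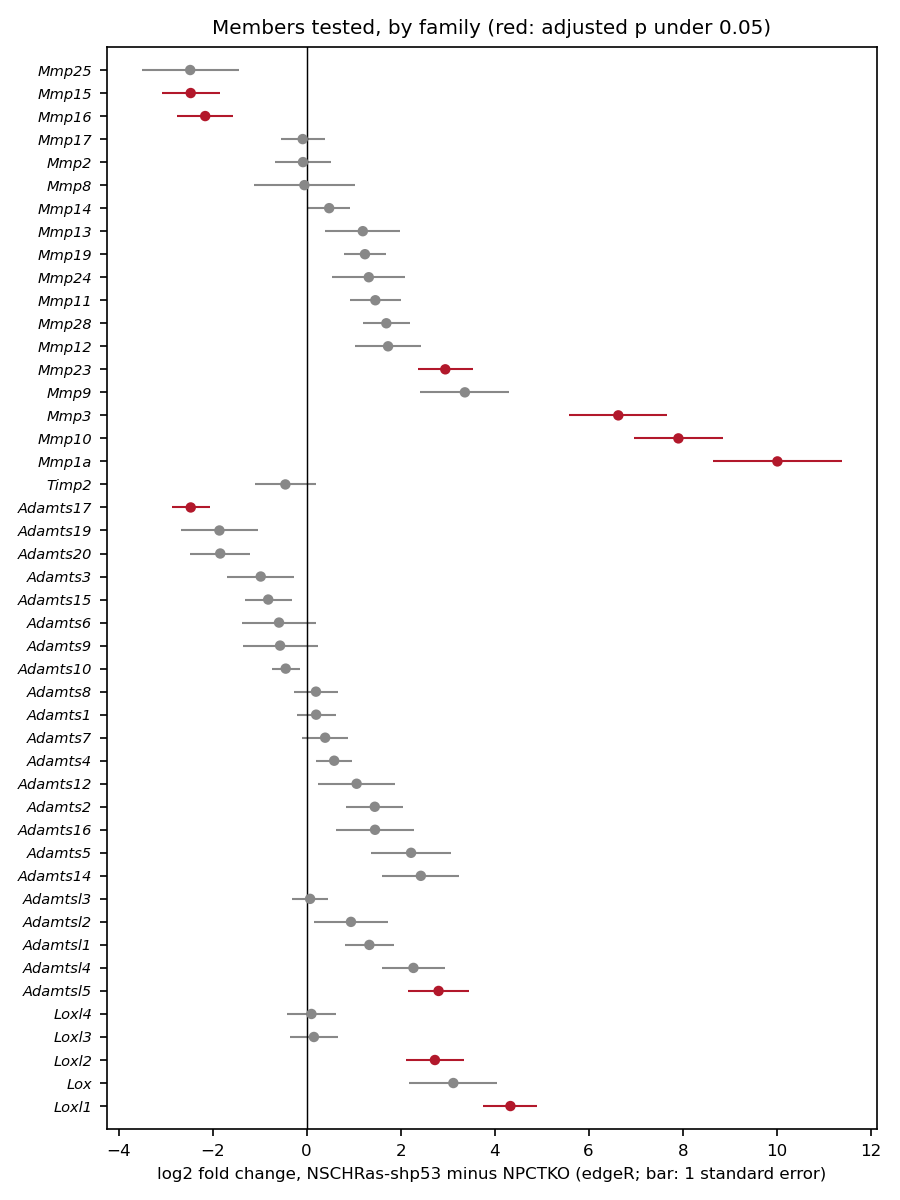
Log2 fold change of the 46 members tested, on the x axis, with bars of 1 standard error, grouped by family from *Mmp* at the top to the lysyl oxidases at the bottom. The 10 members in red passed the adjusted p threshold of 0.05, with *Mmp1a*, *Mmp10* and *Mmp3* farthest to the right and *Adamts17*, *Mmp15* and *Mmp16* to the left. *Mmp1a* had 0 counts in every NPCTKO library, so its plotted value is not a measured size, and the floor bounds it at 4.95 log2 units or more.

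Of the *Mmp* family, 18 of 23 genes were tested, 4 were higher and 2 lower, and the median log2 fold change was 1.28. These calls were 33.3% of the *Mmp* genes tested, beside 13.1% of all genes tested. A cluster of 10 *Mmp* genes lies within 427 kb of chromosome 9 in mm10 (7272514 to 7699585). In genomic order it holds *Mmp13*, *Mmp12*, *Mmp1b*, *Mmp3*, *Mmp1a*, *Mmp10*, *Mmp8*, *Mmp27*, *Mmp20* and *Mmp7*. Its middle genes *Mmp3*, *Mmp1a* and *Mmp10* were at or near 0 in the sorted NPCTKO cells and were read in all 3 whole NSCHRas-shp53 tumours, whereas its last 2 genes, *Mmp20* and *Mmp7*, had 0 counts in all 7 libraries.

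*Mmp10* (stromelysin-2, chromosome 9, 7502352 to 7510240) cleaves proteoglycans and fibronectin and activates other metalloproteinases. It was read at 0.0673, 0, 0 and 0.302 CPM in NPCTKO 1 to 4 and 14.8, 25.8 and 32.4 CPM in NSCHRas-shp53 1 to 3. Its lowest NSCHRas-shp53 value lay far above every NPCTKO value, 2 of which were 0 (log2 fold change 7.91, SE 0.955, adjusted p = 0.00383). *Mmp3* (stromelysin-1, chromosome 9, 7445822 to 7455975), with a like range of substrates, was read at 0, 0, 0.26 and 0.242 CPM in NPCTKO 1 to 4 and 4.43, 23.4 and 14.2 CPM in NSCHRas-shp53 1 to 3. The groups did not overlap, and the NPCTKO values rest on 5 counts in sample 3 and 4 counts in sample 4 (log2 fold change 6.63, SE 1.04, adjusted p = 0.00819). *Mmp1a* (chromosome 9, 7464141 to 7476869), a mouse counterpart of the human interstitial collagenase, had 0 counts in all 4 NPCTKO libraries and 1.53, 7.56 and 12.7 CPM in NSCHRas-shp53 1 to 3. The mean in NSCHRas-shp53 was at least 31.0-fold higher than the largest floor of a single NPCTKO library, 0.234 CPM (adjusted p = 0.0133), and the call was lost without NSCHRas-shp53 2 (adjusted p = 0.0584) or 3 (0.0550). Its close copy *Mmp1b*, which was under the filter on low counts, had 0, 0, 0 and 1 counts in NPCTKO and 6, 11 and 24 counts in NSCHRas-shp53. Reads of this pair may be split between them, and 25.5% of the exonic bases of *Mmp1b* overlap *Mmp12*.

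The other genes of the cluster differed less or not beyond the spread. *Mmp12*, the macrophage elastase, was read at 23.9, 2.11, 6.98 and 17 CPM in NPCTKO 1 to 4 and 52.7, 24.5 and 47.7 CPM in NSCHRas-shp53 1 to 3. The groups did not overlap, but NPCTKO 1 and 4 came near to the lowest NSCHRas-shp53 library and it was not called (log2 fold change 1.73, SE 0.708, adjusted p = 0.141). *Mmp13*, collagenase-3, was read at 14.6, 4.13, 3.18 and 2.9 CPM in NPCTKO 1 to 4 and 19.1, 2.84 and 20.6 CPM in NSCHRas-shp53 1 to 3, and the groups overlapped (log2 fold change 1.19, SE 0.796, adjusted p = 0.348). *Mmp8*, the collagenase of neutrophils, ranged from 0.156 to 4.78 CPM over all libraries, with overlap and a log2 fold change of -0.05 whose sign turned under several settings. NPCTKO 1 was its highest library, as it was for the sum of 12 markers of granulocytes and monocytes (574, 396, 11.3 and 76.7 CPM in NPCTKO 1 to 4, and 85.4 to 145 CPM in NSCHRas-shp53), and their part was not tested. NPCTKO 2 had the next highest sum but the lowest *Mmp8* of all libraries, 0.156 CPM. In that sample the marker *Csf3r* alone was at 374 CPM. *Mmp27* was under the filter, with 0, 0, 0 and 5 counts in NPCTKO and 17, 8 and 15 counts in NSCHRas-shp53.

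**Figure D2:**
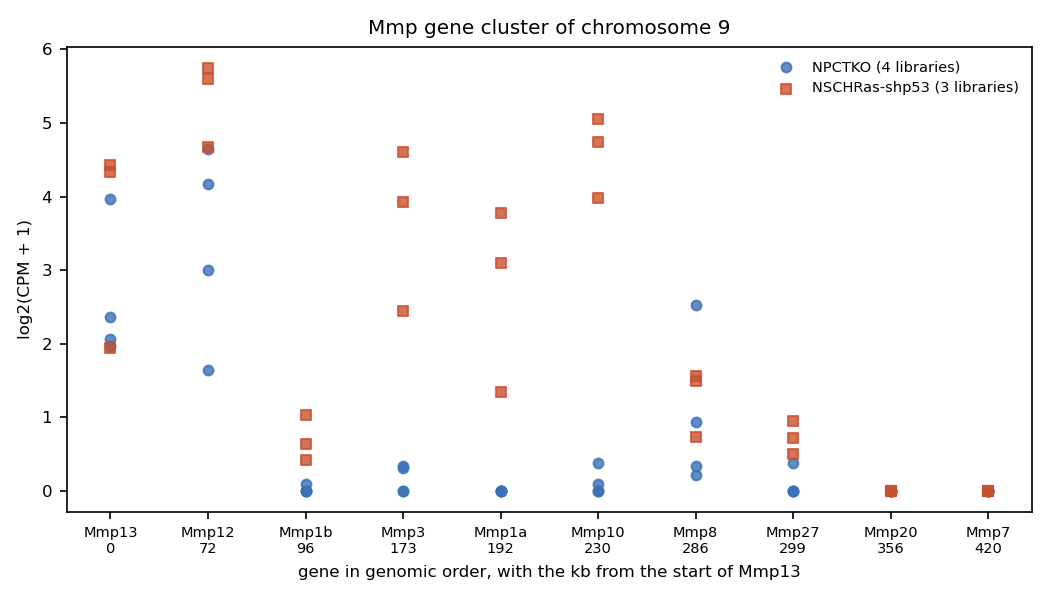
Log2(CPM + 1) of the 10 *Mmp* genes of the chromosome 9 cluster, in genomic order with the distance in kb from the start of *Mmp13*, 1 point per library (circles NPCTKO, squares NSCHRas-shp53). At *Mmp3*, *Mmp1a* and *Mmp10* the NPCTKO points lie at or near 0 and the NSCHRas-shp53 points above them, and at *Mmp20* and *Mmp7* all points lie at 0.

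Promoter sequence was looked up for the members, because the neighbouring cluster genes *Mmp3*, *Mmp1a* and *Mmp10* were all called higher. RefSeq windows on GRCm38.p6, from 250 bases before to 50 bases after a start, were found for 37 of 56 members (40 windows). They were searched on both strands for TGAGTCA and its reverse complement TGACTCA, letters bound by AP-1 factors such as Fos and Jun. They occurred in 7 of the 12 windows of the 10 cluster genes and in 0 of the 28 windows of the 27 other members matched, and in 5.2% of the 32851 windows of all genes. Members without a window were not searched, and all of them lie outside the cluster. Among them are *Loxl1*, *Loxl2* and *Mmp16*, which were called, and *Mmp9*, *Lox* and *Mmp2*. The 7 genes with the letters were *Mmp13*, *Mmp12*, *Mmp1b*, *Mmp3*, *Mmp1a*, *Mmp10* and *Mmp7*, so the letters are shared by genes that were called, genes that were not, and 1 gene that was not read. *Mmp1a* and *Mmp1b* are close copies, so the 7 matches are not independent of each other. All 7 matches lie within 100 bases before the start, a stretch that holds them in 1.88% of all windows. The letters TATAAA, on either strand, were found in 9 of the 12 cluster windows, 3 of the other 28 and 13.6% of all windows. A match is a description of the sequence and not a site shown to be bound. The 100 bases before the start are shown 5′ to 3′ for the 3 genes called higher, for *Mmp1b*, and for *Mmp7*, which holds the letters but had 0 counts, with the AP-1 letters in capitals.
Mmp1b, chr9:7388027-7388126, minus strand: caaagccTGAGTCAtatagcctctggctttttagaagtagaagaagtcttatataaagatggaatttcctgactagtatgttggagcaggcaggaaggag
Mmp3, chr9:7445722-7445821, plus strand: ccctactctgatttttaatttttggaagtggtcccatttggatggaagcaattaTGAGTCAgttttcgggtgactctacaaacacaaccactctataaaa
Mmp1a, chr9:7464041-7464140, plus strand: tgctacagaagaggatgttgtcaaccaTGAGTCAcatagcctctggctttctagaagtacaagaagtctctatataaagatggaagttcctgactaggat
Mmp10, chr9:7502242-7502341, plus strand: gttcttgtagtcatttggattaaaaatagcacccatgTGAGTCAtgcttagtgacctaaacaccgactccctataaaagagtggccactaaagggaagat
Mmp7, chr9:7691990-7692089, plus strand: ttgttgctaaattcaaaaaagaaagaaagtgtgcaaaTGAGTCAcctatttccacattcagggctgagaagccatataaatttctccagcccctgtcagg

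In these sequences the letters start 93 bases before the start of *Mmp1b*, 46 before *Mmp3*, 73 before *Mmp1a*, and 63 before both *Mmp10* and *Mmp7*. In all 5 the orientation is TGAGTCA, and each stretch also holds TATAAA. The matched genes not shown, *Mmp13* and *Mmp12*, do not share this layout. *Mmp13* has the other orientation, TGACTCA, 35 bases before its start, with TATAAA. *Mmp12* has TGAGTCA 44 bases before the start of its matching window, and no TATAAA in that stretch.

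Outside the cluster, 2 transmembrane metalloproteinases, which act at the cell surface, were lower in NSCHRas-shp53. *Mmp15* (MT2-MMP, chromosome 8, 95352268 to 95375080) was read at 514, 719, 407 and 149 CPM in NPCTKO 1 to 4 and 132, 65.7 and 45 CPM in NSCHRas-shp53 1 to 3. The lowest NPCTKO library, sample 4, lay just above the highest NSCHRas-shp53 library (log2 fold change -2.47, SE 0.615, adjusted p = 0.0360). *Mmp16* (MT3-MMP, chromosome 4, 17852893 to 18119145) was read at 29.9, 46.2, 170.1 and 102 CPM in NPCTKO 1 to 4 and 18, 21.9 and 18.6 CPM in NSCHRas-shp53 1 to 3. Its NPCTKO values spread widely, with samples 3 and 4 high, while the 3 NSCHRas-shp53 values were close together (log2 fold change -2.16, SE 0.592, adjusted p = 0.0473). Markers of oligodendrocyte precursors (OPC) also summed higher in NPCTKO, at 4092 to 6007 CPM, than in NSCHRas-shp53, at 818 to 1443 CPM (4 of 7 tested lower, beside 5.28% of all genes tested), and their part was not tested. Both calls depended on single libraries, and that of *Mmp16* was also lost without scaling factors (adjusted p = 0.106). Without NSCHRas-shp53 1, 2 or 3 the adjusted p was 0.0548, 0.148 and 0.153 for *Mmp15* and 0.153, 0.150 and 0.177 for *Mmp16*. *Mmp15* was also lost without NPCTKO 1 (0.0693), 2 (0.0692) or both (0.0773), and *Mmp16* without NPCTKO 2 (0.0521), 3 (0.0507) or 4 (0.0784), each with the same sign.

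*Mmp14* (MT1-MMP), which activates the precursor of *Mmp2*, was read at 294, 297, 101 and 133 CPM in NPCTKO 1 to 4 and 287, 228 and 348 CPM in NSCHRas-shp53 1 to 3. The groups overlapped, with NPCTKO 1 and 2 inside the NSCHRas-shp53 range and 3 and 4 below it (log2 fold change 0.48, SE 0.443, adjusted p = 0.504). Without NPCTKO 1 and 2 it was called higher (log2 fold change 1.33, adjusted p = 0.0293). *Mmp24*, another transmembrane member, was read at 1.55, 11.2, 4.79 and 1.27 CPM in NPCTKO 1 to 4 and 17.7, 6.29 and 11.1 CPM in NSCHRas-shp53 1 to 3, with overlap (log2 fold change 1.32, adjusted p = 0.289). Of the lipid-anchored pair, *Mmp17* was read at 60.0, 40.2, 41.1 and 14.6 CPM in NPCTKO 1 to 4 and 39.3, 24.3 and 46.7 CPM in NSCHRas-shp53 1 to 3, overlapping throughout, and its log2 fold change of -0.08 turned positive under several settings. *Mmp25*, which is known from leukocytes, was read at 27.1, 40.2, 1.09 and 11.7 CPM in NPCTKO 1 to 4 and 6.34, 2.18 and 2.25 CPM in NSCHRas-shp53 1 to 3. NPCTKO 1 and 2 were the highest and NPCTKO 3 the lowest of all 7 libraries, in the same order as the summed macrophage markers of those samples (log2 fold change -2.48, adjusted p = 0.146), and without NPCTKO 3 it was called lower (log2 fold change -2.87, adjusted p = 0.0246).

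The gelatinases cut denatured collagen and the collagen of basement membranes. *Mmp9* was read at 15.1, 1.87, 1.25 and 6.17 CPM in NPCTKO 1 to 4 and 37.4, 21.5 and 130.0 CPM in NSCHRas-shp53 1 to 3. All NSCHRas-shp53 libraries were above all NPCTKO libraries, NSCHRas-shp53 3 highest by a wide margin, and the difference just missed the threshold (log2 fold change 3.37, SE 0.946, adjusted p = 0.0511). Without NPCTKO 1, the library nearest to NSCHRas-shp53, it was called (log2 fold change 4.38, adjusted p = 0.0293). Without NSCHRas-shp53 3 it was not (log2 fold change 2.28, adjusted p = 0.229). *Mmp2* was read at 90.1, 239, 32 and 71.2 CPM in NPCTKO 1 to 4 and 97, 89.4 and 121 CPM in NSCHRas-shp53 1 to 3, with NPCTKO 2 the highest and NPCTKO 3 the lowest of all libraries. Its log2 fold change of -0.08 (SE 0.594, adjusted p = 0.948) changed sign without scaling factors and under other settings, and no direction is given.

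The *Mmp* genes left are secreted or of mixed type. *Mmp23* (chromosome 4, 155650655 to 155653384), a short member anchored to the membrane, was read at 1.75, 0.78, 0.729 and 0.907 CPM in NPCTKO 1 to 4 and 3.44, 13 and 7.74 CPM in NSCHRas-shp53 1 to 3, with all NSCHRas-shp53 libraries above all NPCTKO libraries (log2 fold change 2.95, SE 0.589, adjusted p = 0.0170). The call was lost without NSCHRas-shp53 2 (adjusted p = 0.0803) or 3 (0.0693). *Mmp19* was read at 25, 48.7, 12.6 and 40.8 CPM in NPCTKO 1 to 4 and 84.8, 55.1 and 85 CPM in NSCHRas-shp53 1 to 3 and the groups did not overlap (log2 fold change 1.24, adjusted p = 0.108). *Mmp28* (epilysin) was read at 1.75, 2.81, 4.22 and 5.74 CPM in NPCTKO 1 to 4 and 12.2, 7.76 and 15.4 CPM in NSCHRas-shp53 1 to 3, without overlap and just outside the threshold (log2 fold change 1.69, adjusted p = 0.0581), and it was called without NPCTKO 4 (adjusted p = 0.0495). *Mmp11* (stromelysin-3) was read at 8.01, 1.72, 3.33 and 3.32 CPM in NPCTKO 1 to 4 and 8.8, 11.9 and 13.2 CPM in NSCHRas-shp53 1 to 3, also without overlap (log2 fold change 1.46, adjusted p = 0.110), and was called without NPCTKO 1 (log2 fold change 2.04, adjusted p = 0.0417). *Mmp21* stayed at 0.078 to 0.304 CPM, at or near the floor.

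The lysyl oxidases had a median log2 fold change of 2.73 over 5 genes, with 2 higher (40%, beside 7.77% of all genes tested) and none lower. By limma on FPKM the median was 1.04 over 4 genes, without *Loxl2*, which has no row of its own. *Loxl1* (chromosome 9, 58287738 to 58313186), which is needed for elastic fibre assembly, was read at 3.57, 6.86, 4.74 and 17.6 CPM in NPCTKO 1 to 4 and 158, 196 and 143 CPM in NSCHRas-shp53 1 to 3. Every NSCHRas-shp53 library lay far above the highest NPCTKO library, sample 4 (log2 fold change 4.33, SE 0.574, adjusted p = 0.00494). The group levels were mean 8.19 ± 6.41 CPM (SD, n = 4) in NPCTKO and 165 ± 27.3 CPM (SD, n = 3) in NSCHRas-shp53. *Loxl2* (chromosome 14, 69609068 to 69695834), which crosslinks basement membrane collagen, was read at 5.11, 2.18, 15.6 and 5.26 CPM in NPCTKO 1 to 4 and 35.6, 41.7 and 63.4 CPM in NSCHRas-shp53 1 to 3, with NPCTKO 3 nearest to the NSCHRas-shp53 range (log2 fold change 2.73, SE 0.619, adjusted p = 0.0264). This call was lost without NPCTKO 1 (adjusted p = 0.0631) or 4 (0.0573) and without NSCHRas-shp53 1 (0.0606), 2 (0.0795) or 3 (0.111), always with the same sign, and 41.7% of its exonic bases overlap other genes.

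*Lox*, the founding collagen and elastin crosslinker, was read at 0.605, 0.468, 6.3 and 1.09 CPM in NPCTKO 1 to 4 and 8.74, 18 and 29.3 CPM in NSCHRas-shp53 1 to 3. The groups did not overlap, but NPCTKO 3 stood at 6.30 CPM, close to the lowest NSCHRas-shp53 library, and *Lox* was not called (log2 fold change 3.12, SE 0.933, adjusted p = 0.0620). Without NPCTKO 3, the library nearest to NSCHRas-shp53, it was called (log2 fold change 4.67, adjusted p = 0.00708). Of the 15 alternatives run for *Lox*, 6 gave a call. *Loxl3* was read at 87.5, 93.6, 21.9 and 42.1 CPM in NPCTKO 1 to 4 and 44.8, 65 and 94.6 CPM in NSCHRas-shp53 1 to 3. *Loxl4* was read at 4.91, 1.4, 4.01 and 4.9 CPM in NPCTKO 1 to 4 and 4.75, 2.84 and 4.67 CPM in NSCHRas-shp53 1 to 3. Both overlapped fully between the models, with log2 fold changes of 0.15 and 0.10 (adjusted p = 0.875 and 0.922) that turned sign without single libraries, *Loxl3* without NPCTKO 3 (-0.13) or NSCHRas-shp53 3 (-0.15) and *Loxl4* without NPCTKO 2 (-0.13). 28.2% of the exonic bases of *Loxl3* overlap *Htra2*.

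**Figure D3:**
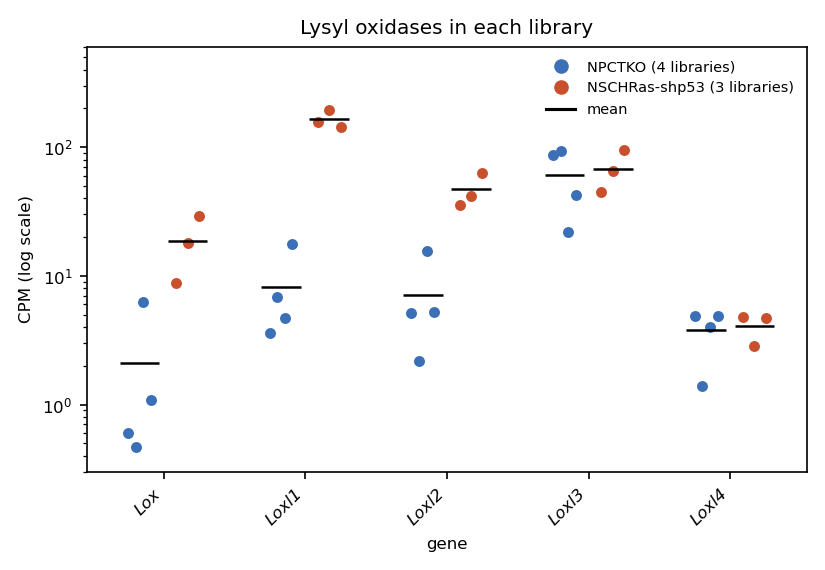
CPM of the 5 lysyl oxidases on a log axis, 1 point per library with the group mean as a bar. The points of *Lox*, *Loxl1* and *Loxl2* separate the models, with the gap widest at *Loxl1*, and those of *Loxl3* and *Loxl4* overlap.

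The Timp inhibitors were compared as FPKM (fragments scaled to transcript length and sequencing depth, from the authors' Cufflinks run), on log2(FPKM + 1) with limma, since the count table gives 3 of them no reads. Each of the 3 lies inside a synapsin gene on the opposite strand, and the library kit does not keep the strand. *Timp1* shares 0 of 888 exonic bases with exons of its host *Syn1*, *Timp4* 90 of 5894 with *Syn2*, and *Timp3* 1733 of 8144 (21.3%) with *Syn3*. Of 13440 rows tested in this way, 15.5% were called (8.82% higher and 6.67% lower).

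*Timp1* (chromosome X, 20870166 to 20874735), a secreted inhibitor that is induced in reactive glia, was at 3.71, 3.86, 14 and 9.21 FPKM in NPCTKO 1 to 4 and 325, 1265 and 909 FPKM in NSCHRas-shp53 1 to 3. The 3 whole tumours were all far above the 4 sorted samples, and NPCTKO 1 and 2 were the lowest (log2 difference 6.55, SE 0.572, adjusted p = 0.000913 from limma). The adjusted p stayed at or under 0.0128 in every alternative run, each library left out included. Its host *Syn1* was at 2.36 to 5.93 FPKM in NPCTKO and 9.67 to 17.4 FPKM in NSCHRas-shp53. *Timp3*, which is bound to matrix and also blocks ADAMTS proteases, was at 32.5, 31.3, 37 and 97.3 FPKM in NPCTKO 1 to 4 and 47.4, 40.8 and 96.1 FPKM in NSCHRas-shp53 1 to 3, with NPCTKO 4 and NSCHRas-shp53 3 high and the others together (log2 difference 0.37, SE 0.469, adjusted p = 0.637). *Timp4*, known from brain, was at 30.4, 25, 10.1 and 15.3 FPKM in NPCTKO 1 to 4 and 22.4, 16.7 and 30.8 FPKM in NSCHRas-shp53 1 to 3, overlapping throughout (log2 difference 0.27, SE 0.398, adjusted p = 0.693), and without NPCTKO 3 its difference was -0.0023. Its host *Syn2* was at 34.4, 29.6, 17.3 and 21.3 FPKM in NPCTKO 1 to 4 and 10.6, 6.19 and 15.3 FPKM in NSCHRas-shp53 1 to 3. Within each model the libraries had the same order for *Syn2* as for *Timp4*, and the part of *Syn2* reads in the *Timp4* values was not tested. *Syn3*, the host of *Timp3*, was at 1.32 to 3.36 FPKM in NPCTKO and 0.822 to 1.42 FPKM in NSCHRas-shp53.

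*Timp2*, an inhibitor that also takes part in the activation of *Mmp2* by *Mmp14*, had counts of its own. It was read at 926, 1052, 175 and 258 CPM in NPCTKO 1 to 4 and 419, 369 and 533 CPM in NSCHRas-shp53 1 to 3. NPCTKO 1 and 2 were several times as high as NPCTKO 3 and 4, and the NSCHRas-shp53 libraries lay between the pairs (log2 fold change -0.45, SE 0.642, adjusted p = 0.674). Without NPCTKO 1 and 2 its log2 fold change was 1.06 (adjusted p = 0.0605), and without NPCTKO 2 alone 0.0072, so the models gave no stable direction. The macrophage sums of NPCTKO 1 to 4 were 18369, 22694, 458 and 2921 CPM, in the same order from high to low as *Timp2*, and their part in it was not tested.

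**Figure D4:**
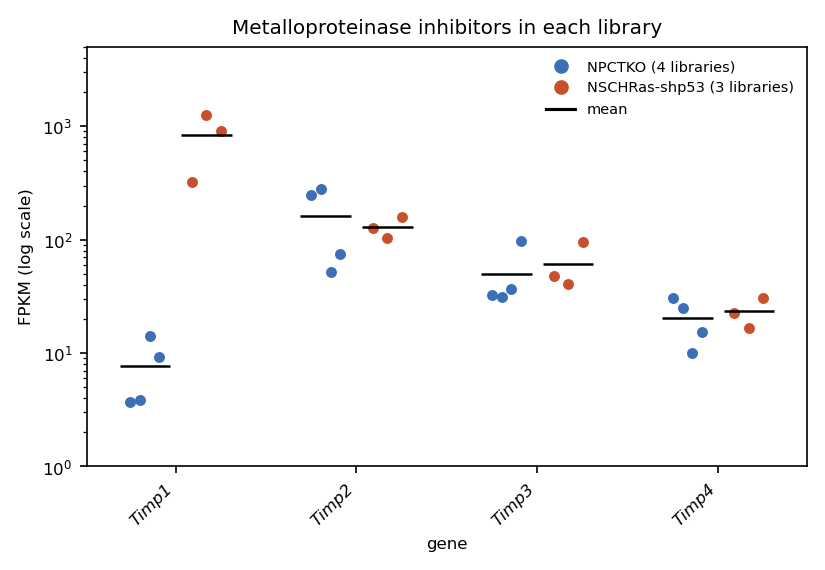
FPKM of the 4 Timp inhibitors on a log axis, 1 point per library with the group mean as a bar. *Timp1* separates the models by the mean values of 7.70 and 833 FPKM, and the other 3 overlap.

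Per length, *Timp2* had the highest mean FPKM of the members in NPCTKO (163 FPKM), followed by *Mmp15* (79.2 FPKM), *Mmp14* (70.4 FPKM), *Timp3* (49.5 FPKM), *Adamts1* (44.8 FPKM) and *Mmp2* (33.7 FPKM). The SD of *Timp2* was 115 FPKM (n = 4), that of *Mmp15* 35.2 FPKM and that of *Mmp14* 31.0 FPKM, so the first 3 places are not separated by their spread. In NSCHRas-shp53 *Timp1* came first at 833 ± 474 FPKM (SD, n = 3), then *Timp2* (129 ± 26.9 FPKM), *Mmp14* (111 ± 18.5 FPKM), *Timp3* (61.4 ± 30.2 FPKM), *Loxl1* (51.3 ± 10.8 FPKM), *Adamts1* (50.2 ± 25.2 FPKM) and *Adamts14* (37.4 ± 13.1 FPKM). *Timp1* moved from place 14 to place 1, *Loxl1* from 25 to 5 and *Mmp15* from 2 to 14. *Mmp10* moved from 46 to 15. *Mmp23* and *Loxl2* share an FPKM row with another gene and have no place in this order.

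Summed over the family, the Timp genes were at 313, 337, 113 and 197 FPKM in NPCTKO 1 to 4 and at 521, 1426 and 1193 FPKM in NSCHRas-shp53 1 to 3. The groups did not overlap, and *Timp1* alone gave most of the sum in the latter. The *Mmp* genes summed to 268, 333, 189 and 148 FPKM in NPCTKO and to 261, 223 and 343 FPKM in NSCHRas-shp53, which overlapped. The lysyl oxidases, without *Loxl2*, summed to 8.90 to 21.5 FPKM in NPCTKO and to 58.9 to 82.5 FPKM in NSCHRas-shp53.

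The ADAMTS proteases had a median log2 fold change of 0.20 over 17 of 19 genes tested, with none higher and 1 lower. The 1 call was 5.88% of the ADAMTS genes tested, under the 13.1% of all genes tested. This median had no stable sign, at -0.29 without NSCHRas-shp53 1, 0.0063 without 2, -0.32 without 3 and 0.0026 without NPCTKO 1 and 2. Each run without an NSCHRas-shp53 library covered 18 ADAMTS genes, so part of its move can come from the change of genes. With none higher by edgeR, 3 were higher at an unadjusted p under 0.05, 2 by DESeq2 and 1 by limma on FPKM. *Adamts17* (chromosome 7, 66839735 to 67153171), which is linked to fibrillin and growth, was the one called lower, at 10.6, 8.97, 11.3 and 14.9 CPM in NPCTKO 1 to 4 and 2.46, 1.78 and 1.95 CPM in NSCHRas-shp53 1 to 3. Every NPCTKO value lay well above every NSCHRas-shp53 value and both groups were tight (log2 fold change -2.47, SE 0.401, adjusted p = 0.00909), and the adjusted p rose to 0.0511 without NSCHRas-shp53 2 and to 0.0570 without 3. Its fibrillin-binding relative *Adamts10* was read at 96.4, 72.5, 63 and 61.6 CPM in NPCTKO 1 to 4 and 39.4, 63.5 and 58.6 CPM in NSCHRas-shp53 1 to 3, with overlap (log2 fold change -0.45, adjusted p = 0.347).

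The proteases that trim the amino-terminal propeptide of collagens are *Adamts2*, *Adamts3* and *Adamts14*. *Adamts14* was read at 11.4, 11.2, 37.6 and 120.1 CPM in NPCTKO 1 to 4 and 149, 288 and 291 CPM in NSCHRas-shp53 1 to 3. NPCTKO 4 came near to the lowest NSCHRas-shp53 library, the groups did not overlap, and it was not called (log2 fold change 2.43, SE 0.821, adjusted p = 0.0876), but without NPCTKO 4 it was (log2 fold change 3.59, adjusted p = 0.0165). *Adamts2* was read at 8.61, 4.68, 2.66 and 1.27 CPM in NPCTKO 1 to 4 and 12.2, 11.8 and 11.2 CPM in NSCHRas-shp53 1 to 3, without overlap (log2 fold change 1.45, adjusted p = 0.146). *Adamts3* had 4.57, 4.99, 29.2 and 21.3 CPM in NPCTKO 1 to 4 and 5.08, 8.42 and 9.39 CPM in NSCHRas-shp53 1 to 3, with NPCTKO 3 and 4 above all other libraries (log2 fold change -0.98, adjusted p = 0.389). Without NPCTKO 1 and 2, *Adamts2* was called higher (log2 fold change 2.60, adjusted p = 0.0184) and *Adamts3* lower (-1.70, adjusted p = 0.0286).

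The proteases that cleave aggrecan, versican and related proteoglycans showed no call. *Adamts1*, the most abundant of the ADAMTS genes per length in both models, was read at 204, 150.2, 259.6 and 243 CPM in NPCTKO 1 to 4 and 413, 169 and 156 CPM in NSCHRas-shp53 1 to 3, with NSCHRas-shp53 1 the highest library and the other 2 within the NPCTKO range (log2 fold change 0.20, adjusted p = 0.785). *Adamts4* was read at 54.9, 56.7, 94.1 and 38.6 CPM in NPCTKO 1 to 4 and 132, 73.3 and 69.8 CPM in NSCHRas-shp53 1 to 3, with overlap (log2 fold change 0.59, adjusted p = 0.339). *Adamts5*, which lies beside *Adamts1* on chromosome 16, was read at 3.9, 0.936, 16.5 and 5.86 CPM in NPCTKO 1 to 4 and 12.2, 49.5 and 34 CPM in NSCHRas-shp53 1 to 3. NPCTKO 3 lay above NSCHRas-shp53 1 and kept the groups from separating (log2 fold change 2.22, adjusted p = 0.119), and without NPCTKO 3 it was called higher (log2 fold change 3.15, adjusted p = 0.0310). *Adamts9* was read at 12.4, 11, 122 and 55.4 CPM in NPCTKO 1 to 4 and 44.5, 25.4 and 31.7 CPM in NSCHRas-shp53 1 to 3. NPCTKO 3 and 4 were above and NPCTKO 1 and 2 below all 3 NSCHRas-shp53 libraries, and the log2 fold change of -0.57 turned to 0.36 without NPCTKO 3. *Adamts20* was read at 18.8, 8.58, 40.3 and 60.6 CPM in NPCTKO 1 to 4 and 6.61, 10.4 and 9.9 CPM in NSCHRas-shp53 1 to 3, with NPCTKO 2 inside the NSCHRas-shp53 range (log2 fold change -1.84, adjusted p = 0.0955). Without NPCTKO 2 it was called lower (log2 fold change -2.12, adjusted p = 0.0406).

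Of the ADAMTS genes with other or less known substrates, *Adamts7* was read at 22.2, 15.4, 30.9 and 19.3 CPM in NPCTKO 1 to 4 and 11.1, 28.7 and 46.7 CPM in NSCHRas-shp53 1 to 3. *Adamts6* was read at 4.71, 4.21, 41.2 and 24.2 CPM in NPCTKO 1 to 4 and 8.36, 15.4 and 13.3 CPM in NSCHRas-shp53 1 to 3. *Adamts6* had the same layout as *Adamts9*, with NPCTKO 3 and 4 high and 1 and 2 low, and both *Adamts6* and *Adamts7* overlapped between the models (log2 fold changes -0.59 and 0.39, adjusted p = 0.658 and 0.623). *Adamts8*, *Adamts12*, *Adamts15*, *Adamts16* and *Adamts19* were read at 0 to 8.69 CPM over all libraries, and their log2 fold changes from -1.86 to 1.45 were not called. *Adamts13*, which cuts von Willebrand factor, was under the filter, with 4.91 CPM in NPCTKO 1 and at most 0.936 CPM in the other libraries. *Adamts18* was under the filter with at most 0.606 CPM.

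The ADAMTS-like genes encode matrix proteins that lack the protease domain, and some bind fibrillin. Of the 5, 1 was higher (20%, beside 7.77% of all genes tested) and none lower, and their median log2 fold change was 1.33. *Adamtsl5* (chromosome 10, 80339110 to 80348412) was read at 3.9, 0.858, 0.781 and 1.63 CPM in NPCTKO 1 to 4 and 7.43, 18.1 and 12.2 CPM in NSCHRas-shp53 1 to 3, with NPCTKO 1 highest of its group and below every NSCHRas-shp53 library (log2 fold change 2.81, SE 0.656, adjusted p = 0.0292). It was not called without NPCTKO 2 (adjusted p = 0.0554) or 4 (0.0596), or without NSCHRas-shp53 1 (0.0513), 2 (0.121) or 3 (0.0998). *Adamtsl4* was read at 33.4, 21.4, 3.8 and 9.25 CPM in NPCTKO 1 to 4 and 58.8, 125 and 61.7 CPM in NSCHRas-shp53 1 to 3, again without overlap (log2 fold change 2.27, SE 0.673, adjusted p = 0.0601), and was called without NPCTKO 1 (adjusted p = 0.0384) or 3 (0.0433). Without NSCHRas-shp53 2 its log2 fold change fell to 1.83 (adjusted p = 0.212). *Adamtsl1* was read at 8.01, 6.71, 24.2 and 9.19 CPM in NPCTKO 1 to 4 and 22.1, 22.6 and 46.3 CPM in NSCHRas-shp53 1 to 3, where NPCTKO 3 alone reached the NSCHRas-shp53 range (log2 fold change 1.33, adjusted p = 0.131), and without NPCTKO 3 it was called higher (log2 fold change 1.93, adjusted p = 0.0221). *Adamtsl3* was read at 10.4, 10.1, 13.5 and 21.8 CPM in NPCTKO 1 to 4 and 16.3, 12.5 and 15.3 CPM in NSCHRas-shp53 1 to 3, with overlap and a log2 fold change of 0.07 that was -0.01 without NPCTKO 1 and -0.02 without NPCTKO 2. *Adamtsl2* ranged from 0.313 to 9.30 CPM, also with overlap.

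The CPM ranges of the models did not overlap for 17 members with NSCHRas-shp53 higher and for 3 with it lower, of 46. Over all genes tested, 16.3% were higher and 14.9% lower without overlap. The limma test on FPKM covered 40 members. It called 11 higher and 3 lower, among them all 7 of the edgeR calls it could test, each in the same direction. The 7 called by limma alone were *Timp1*, *Mmp9* (log2 difference 2.85, adjusted p = 0.0229), *Adamtsl4* (2.32, adjusted p = 0.0178), *Adamts14* (2.83, adjusted p = 0.0293), *Lox* (1.78, adjusted p = 0.0284), *Mmp28* (1.08, adjusted p = 0.0221) and *Mmp11* (1.22, adjusted p = 0.0417). Differences on log2(FPKM + 1) understate the change of low genes. Of the 10 edgeR calls, *Mmp10*, *Mmp3* and *Loxl1* were also made in all 15 alternatives run.

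The members had a larger median spread within each model than all genes tested. The median SD of log2(CPM + 1) over the members tested was 0.911 in NPCTKO and 0.467 in NSCHRas-shp53, beside 0.554 and 0.291 over all of these genes. Within NPCTKO, samples 1 and 2 were both above samples 3 and 4 for 12 of 46 members (26.1%, beside 37.9% of all genes), and both below for 18 (39.1%, beside 36.3%). Highest in samples 3 and 4 were *Adamts9*, *Adamts6*, *Adamts14*, *Adamts3*, *Adamts20*, *Adamts5* and *Mmp16*, of which 6 are ADAMTS proteases. Highest in samples 1 and 2 were *Mmp25*, *Timp2*, *Adamtsl4*, *Mmp2* and *Loxl3*. NPCTKO 1 and 2 also had the highest macrophage sums (18369 and 22694 CPM, beside 458 CPM in NPCTKO 3 and 2921 CPM in NPCTKO 4). Spearman's rho of the difference between the pairs with transcript GC content was 0.331 over 46 members and 0.599 over 15674 genes, as a description across genes, which are not independent. The part of either in the split of the members was not tested.

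**Figure D5:**
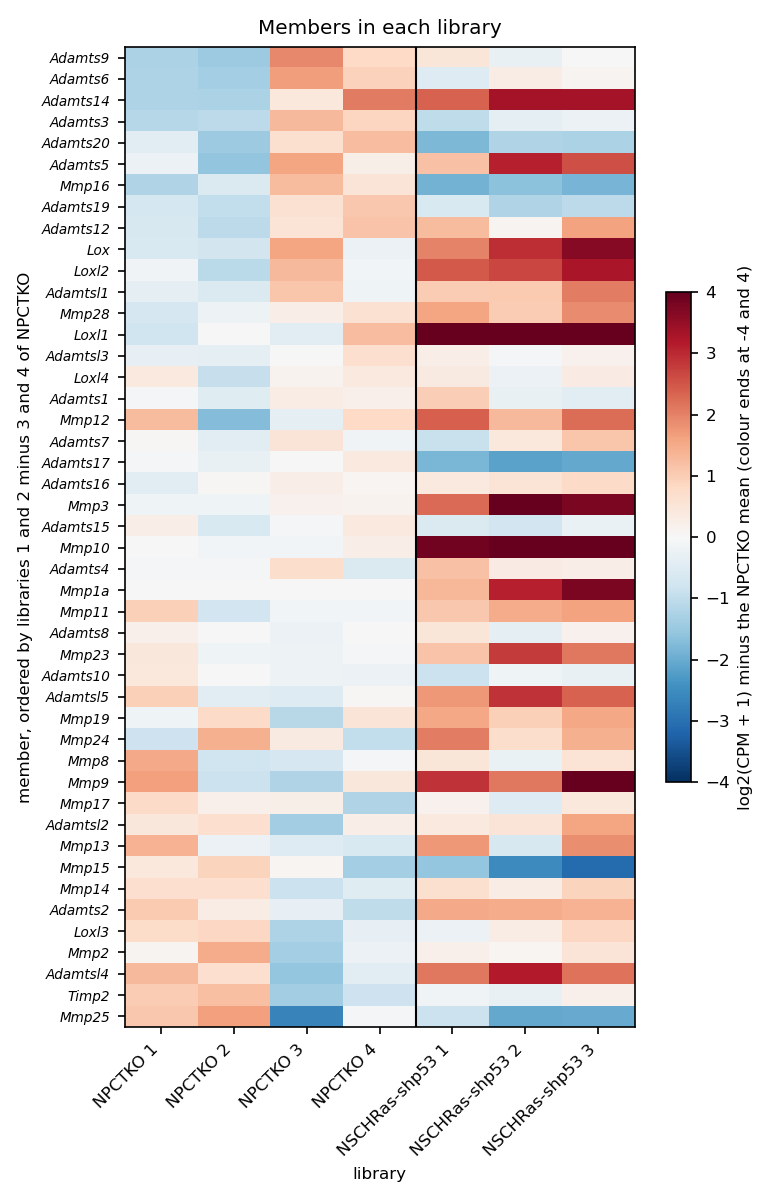
Each row is 1 of the 46 members tested and each column a library, coloured by log2(CPM + 1) minus the mean of the 4 NPCTKO libraries, with colours that end 4 log2 units above and below 0, and rows ordered by the difference of NPCTKO 1 and 2 from 3 and 4. *Adamts9* and *Adamts6* at the top are high in NPCTKO 3 and 4, *Timp2* and *Mmp25* at the bottom in NPCTKO 1 and 2, and *Loxl1* and *Mmp10* are darkest in the 3 NSCHRas-shp53 libraries.

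Genes that work with these proteins were read from 3 lists. Of 86 such genes, 78 were tested, and 14 were higher and none lower in NSCHRas-shp53, with a median log2 fold change of 0.24. The 14 were 17.9% of those tested, where 7.77% of all genes tested were higher and 5.28% lower. The number higher was 5 without NSCHRas-shp53 2 or 3, 8 without 1 and 9 without NPCTKO 2, and 3 were lower without NPCTKO 3. With none lower by edgeR, 4 were lower at an unadjusted p under 0.05 and 1 by DESeq2. Of 40 tested genes of pericellular proteolysis other than the members, 7 were higher (17.5%), with a median of 0.30. *A2m*, a broad protease trap in plasma and tissue, was read at 6.12, 1.64, 0.886 and 8.76 CPM in NPCTKO 1 to 4 and 263, 186 and 294 CPM in NSCHRas-shp53 1 to 3, the groups far apart (log2 fold change 5.83, SE 0.797, adjusted p = 0.00552). *Serpinb2*, an inhibitor of plasminogen activators, was read at 0.135, 0, 0.0521 and 0.121 CPM in NPCTKO 1 to 4 and 3.5, 3.91 and 12.6 CPM in NSCHRas-shp53 1 to 3, where the NPCTKO values lay at or under the floor (log2 fold change 6.29, SE 0.854, adjusted p = 0.00539). *Plat*, the tissue plasminogen activator, was read at 149, 133, 166 and 270.3 CPM in NPCTKO 1 to 4 and 730.2, 725 and 531 CPM in NSCHRas-shp53 1 to 3, without overlap (log2 fold change 1.88, SE 0.355, adjusted p = 0.0143). *Fap*, a membrane-bound protease known from activated fibroblasts, was read at 0.135, 0.312, 0.99 and 1.33 CPM in NPCTKO 1 to 4 and 5.85, 9.39 and 18.2 CPM in NSCHRas-shp53 1 to 3, also without overlap (log2 fold change 3.98, SE 0.783, adjusted p = 0.0162).

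Of 15 tested elastic fibre genes, 5 were higher (33.3%, beside 7.77% of all genes tested), and their median log2 fold change was 1.12. *Ltbp1*, which holds latent TGF-beta in the matrix, was read at 9.42, 7.49, 25.3 and 22.7 CPM in NPCTKO 1 to 4 and 96.6, 149.6 and 139 CPM in NSCHRas-shp53 1 to 3. *Ltbp3*, of the same role, was read at 165, 119, 109.6 and 152 CPM in NPCTKO 1 to 4 and 282, 360.1 and 318 CPM in NSCHRas-shp53 1 to 3. Neither overlapped between the models (log2 fold changes 2.98 and 1.23, adjusted p = 0.00873 and 0.0269). *Fbln2*, a fibulin of vessels and basement membranes, was read at 102, 45.9, 123 and 68.2 CPM in NPCTKO 1 to 4 and 344, 644 and 1684 CPM in NSCHRas-shp53 1 to 3, with NSCHRas-shp53 3 the highest (log2 fold change 3.39, SE 0.607, adjusted p = 0.0120). *Ltbp2* was read at 1.08, 1.4, 0.521 and 0.363 CPM in NPCTKO 1 to 4 and 3.12, 4.72 and 12.3 CPM in NSCHRas-shp53 1 to 3, again apart (log2 fold change 3.00, adjusted p = 0.0266).

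Of 23 collagen processing genes, all tested, 2 were higher and none lower, and their median log2 fold change was -0.09. The 2 were 8.70% of the list, near the 7.77% of all genes tested that were higher. *Fkbp10*, a chaperone of procollagen, was read at 10.1, 6.16, 3.75 and 9.79 CPM in NPCTKO 1 to 4 and 42.2, 19.2 and 32.6 CPM in NSCHRas-shp53 1 to 3, and the groups did not overlap (log2 fold change 2.07, SE 0.452, adjusted p = 0.0226). *P4ha3*, a subunit of a prolyl hydroxylase, was read at 0.336, 1.09, 1.93 and 7.56 CPM in NPCTKO 1 to 4 and 22.6, 37.8 and 39.9 CPM in NSCHRas-shp53 1 to 3 (log2 fold change 3.61, SE 0.885, adjusted p = 0.0345). *P3h4* (log2 fold change 0.88, adjusted p = 0.0785) and *Ppib* (log2 fold change -0.83, adjusted p = 0.151) did not pass the threshold.

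The markers of cells that make matrix were read beside these results. Of the mural markers, *Pdgfrb* was read at 6.32, 2.42, 0.834 and 1.63 CPM in NPCTKO 1 to 4 and 57.8, 45.7 and 78.4 CPM in NSCHRas-shp53 1 to 3, and *Kcnj8* was 0 in NPCTKO 2 and at most 0.673 CPM in the other NPCTKO samples, but 2.77 to 10.5 CPM in NSCHRas-shp53. The summed fibroblast markers were 350 to 584 CPM in NPCTKO and 421 to 872 CPM in NSCHRas-shp53, with 3 of 9 tested higher and 1 lower (beside 7.77% and 5.28% of all genes tested). *Col1a1* was read at 64.4, 16, 11.1 and 19.7 CPM in NPCTKO 1 to 4 and 88.9, 54.5 and 130.0 CPM in NSCHRas-shp53 1 to 3. *Col1a2* was read at 24.8, 15.9, 18.2 and 16 CPM in NPCTKO 1 to 4 and 129, 130.0 and 309.9 CPM in NSCHRas-shp53 1 to 3. *Col1a2* and *Col1a1* were higher in every NSCHRas-shp53 library than in any NPCTKO library, apart from *Col1a1* in NPCTKO 1, which lay within the NSCHRas-shp53 range. *Pdgfra*, a marker shared by fibroblasts and oligodendrocyte precursors, made up most of the sum in NPCTKO. The defining marker *Ogn* had 0 counts in all libraries, and was at 0 FPKM in the 4 NPCTKO libraries and at 0.209, 0.769 and 0.841 FPKM in NSCHRas-shp53 1 to 3. Astrocyte markers summed to 253 to 838 CPM in NPCTKO and 3050 to 3933 CPM in NSCHRas-shp53, and neuron markers to 27.0 to 52.3 CPM and 440 to 645 CPM. The astrocyte sum is without *Gfap*, which also had 0 counts but was at 19.1 to 86.9 FPKM in NPCTKO and 716 to 1096 FPKM in NSCHRas-shp53. *Nefl* of the neuron list and *Gpr17* of the OPC list likewise had 0 counts and FPKM values above 0, and add nothing to those sums. Neural stem cell and glioma markers summed to 964 to 2646 CPM in NPCTKO and 4217 to 8111 CPM in NSCHRas-shp53, with 2 of 6 tested higher and 1 lower. That sum is without *Sox2*, at 0 counts, whose FPKM overlapped (71.0 to 134 in NPCTKO and 51.1 to 111 in NSCHRas-shp53). Summed markers of vessel cells, astrocytes, neurons, and neural stem cells and glioma thus moved with the members that were higher, and their part was not tested.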

How the data were processed

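Bulk poly(A) RNA-seq of 4 NPCTKO and 3 NSCHRas-shp53 samples was analysed, grouped by the labels. Reads were trimmed with Cutadapt (version 1.16 in the submitters' notes) and aligned to the mm10 build by TopHat 2.1.1, and the authors deposited raw counts per gene, made with a counting tool not given in the sources used here, and FPKM values from Cufflinks 2.2.1. The kit did not keep the strand. Genes wholly inside other genes mostly hold 0 counts in the deposited table, and of 28538 FPKM rows 3767 carry no name and were not used to name genes.

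Members were found by symbol. Counts were compared with edgeR 4.0.16 in R 4.3.3 (TMM factors, filterByExpr with a minimum count of 10, quasi-likelihood test, Benjamini-Hochberg adjustment over all genes tested, threshold 0.05). The 3 nested Timp genes were compared with limma 3.58.1 on log2(FPKM + 1), over rows with an FPKM of at least 1 in at least 3 libraries. Levels between genes were compared only as FPKM. A count of 3 was the floor, which covers counting error only. The scripts were tested on simulated data.

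The members, the lists of companion and marker genes and the tests were chosen with earlier results of these data known. Every member could be named, with values in each library for those called, for the Timp and lysyl oxidase genes and for those with a mean of at least 10 CPM in 1 model, and the 4 genes with the smallest p were named of each companion list. Alternatives were RLE size factors, no scaling, no filter, DESeq2 1.42.0, limma on FPKM, a pseudocount of 0.1, offsets for GC content and length, a replicate block, each library left out, and NPCTKO 1 and 2 left out together. Overlaps were read from GENCODE M21 and promoter windows from RefSeq (GRCm38.p6).

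Some items of the study are not reported here.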

Additional observations from a re-analysis of the deposited data

Results flagged for a closer look

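In 46 groups of NPCTKO values examined, with a mean of at least 1, 5 members had a highest library that stood apart from the other 3 by Dixon's test at the 95% level. For independent normal values chance gives this in about 1 of 20 groups. The test was run on CPM and FPKM without a log, so the chance rate for these values is not known. *Lox* was at 6.30 CPM in NPCTKO 3, where the other NPCTKO libraries were at 0.468 to 1.09 CPM. *Adamtsl1* was at 24.2 CPM in the same library, and at 6.71 to 9.19 CPM in the others. *Mmp13* was at 14.6 CPM and *Mmp8* at 4.78 CPM in NPCTKO 1, where the others were at 2.90 to 4.13 CPM and at 0.156 to 0.907 CPM. *Timp3* was at 97.3 FPKM in NPCTKO 4 and at 31.3 to 37.0 FPKM in the others.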

How the results depend on the processing

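At this depth, changes of genes near 3 counts per library were not measurable, and with 4 and 3 libraries many calls turned on 1 library. The members called (7 higher, 3 lower) were 8 higher with RLE size factors, 9 higher and 2 lower without scaling, 11 higher without the filter, 15 higher and 5 lower by DESeq2, 11 higher by limma on FPKM, 11 higher with GC content and length offsets, and 12 higher and 5 lower without NPCTKO 1 and 2. With each library left out, 3 to 11 were higher and 0 to 3 lower, the fewest without NSCHRas-shp53 2 or 3. For *Lox*, *Mmp9*, *Mmp11*, *Mmp28*, *Adamts14*, *Adamts5*, *Adamtsl1*, *Adamts20* and *Mmp25*, a call came only without the NPCTKO library nearest to NSCHRas-shp53. At *Mmp14*, *Adamts2* and *Adamts3* the same was true of NPCTKO 1 and 2, left out together. Leaving out the nearest values favours a call, so such runs give no support of their own. Over all genes (1251 higher, 850 lower), DESeq2 called 2179 and 1852, no scaling gave 540 lower, the GC content and length offsets 1380 lower, and leaving out each library 415 to 1387 higher and 124 to 1208 lower. Companion genes (14 higher, 0 lower) were 5 to 18 higher and 0 to 3 lower with each library left out, and DESeq2 called 1 lower. The median log2 fold change of all genes was -0.10, and 0.09 without scaling, and single members moved by other amounts (*Mmp2* from -0.08 to 0.29, *Adamts9* from -0.57 to -0.60). The call lost without scaling was that of *Mmp16* (adjusted p = 0.106). The cause of these differences was not tested.

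The replicate numbers are shared only as numbers. The correlations of deviations of same-numbered samples were 0.28, -0.19 and 0.19. Unlike-numbered samples gave values such as 0.35 (NPCTKO 2 with NSCHRas-shp53 1) and -0.32 (NPCTKO 3 with NSCHRas-shp53 1). These correlations can neither show nor exclude a pairing, and the main test used none. With a replicate block, 1 member was lower, 9 companion genes were higher, and 718 genes were higher and 323 lower over all genes.

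Of the values computed again, 566 kept direction and side of the threshold or moved little, 47 passed the threshold only under an alternative and 33 lost it, each with the same sign. Reversed log2 fold changes were all of members not called. Without scaling they were 0.19 for *Mmp17*, 0.29 for *Mmp2* and 0.31 for *Mmp8*. By limma on FPKM they were 0.14 for *Mmp17* and 0.29 for *Mmp2*, and with GC content and length offsets 0.12 and 0.40. With the replicate block they were 0.47 for *Adamts9*, 0.19 for *Mmp2*, 1.05 for *Mmp8* and 0.39 for *Adamts6*. Without NPCTKO 1 and 2 they were 0.43 for *Mmp17*, -0.23 for *Adamtsl3*, 1.02 for *Mmp2*, 1.37 for *Mmp8*, 1.06 for *Timp2*, -0.090 for *Loxl4* and -0.072 for *Timp3*. With each library left out, the values ran from -0.36 to 0.23 for *Mmp17*, -0.15 to 0.48 for *Loxl3*, -0.88 to 0.36 for *Adamts9*, -0.019 to 0.37 for *Adamtsl3*, -0.38 to 0.71 for *Mmp2* and -0.41 to 1.74 for *Mmp8*. They ran from -0.058 to 0.48 for *Adamts8*, -0.13 to 0.81 for *Adamts7*, -0.76 to 0.0072 for *Timp2*, -0.90 to 0.16 for *Adamts6*, -0.36 to 0.45 for *Adamts1*, -0.13 to 0.31 for *Loxl4* and -0.0023 to 0.50 for *Timp4*.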
